A study of Mus musculus with 9 samples.

Results

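Apolipoproteins are the protein components of plasma lipoprotein particles, and 10 genes of this class made by the liver were followed here: Apoa1, Apoa2, Apoa4, Apoa5, Apob, Apoc1, Apoc3, Apoe, Apoh and Apom. They were chosen by gene name. Every probe set (a group of short probes read as 1 value) that the array annotation gives to 1 of these genes and to no other was taken. This gave 15 of 22626 probe sets, for 10 of 12393 named genes: 4 probe sets for Apoa1, 2 each for Apoa4 and Apom, and 1 for each of the others. All 15 passed the filter on dim probe sets, which left 15838 probe sets for testing.

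Liver RNA was measured on 9 mouse arrays in 3 groups of 3 samples. The first group, NT-Co, had no tumour and received vehicle. T-Co mice carried TK-4, a human colon cancer, in the wall of the cecum and received vehicle. T-TSU mice carried the same tumour and received TSU68, an oral inhibitor of VEGF, PDGF and FGF receptor kinases, at 400 mg/kg per day. Dosing began 7 days after implantation and lasted 1 week. Tumours were implanted at 6 weeks of age in male mice of the BALB/c nu/nu strain, which is athymic and lacks most T cells. For NT-Co mice the strain, sex and age are not stated separately. No surgery is described for them, so tumour and implantation cannot be told apart. TK-4 is a single tumour, and tumour-free mice given TSU68 are not analysed here. The labels number the samples but do not say that each came from its own animal, and the spread that enters the p-values is then that of the samples, which may be technical. Neither feeding state nor hour of collection, which the liver's lipid genes follow, is given in the labels.

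The liver packs triglyceride and cholesteryl ester into very low density lipoprotein around Apob, which stays with its particle, whereas the smaller apolipoproteins move between particles. Apoa1 and Apoa2 form the scaffold of high density lipoprotein. Apoc and Apoe proteins and Apoa5 set how fast lipoprotein lipase empties the particles and how fast the liver takes up their remnants. Apoa4 is made mainly by the intestine and also by the liver.

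In RefSeq's gene order, Apoa1, Apoc3, Apoa4 and Apoa5 are direct neighbours on chromosome 9, and Apoc1 and Apoe on chromosome 7. Apoa2 lies on chromosome 1, Apoh on 11, Apob on 12 and Apom on 17. The 250 bases before the annotated starts of Apoa4, Apoa5 and Apoa1 are shown because these are neighbours of which Apoa4 alone passed the test below. They are from RefSeq's promoter table of build GRCm38.p6, all on the plus strand and read 5′ to 3′, at chr9:46240594-46240843 for Apoa4, chr9:46268358-46268607 for Apoa5 (the first of 2 annotated starts) and chr9:46228380-46228629 for Apoa1. Capitals mark CAAAG or its reverse complement CTTTG, the core letters bound by the liver factor HNF4A, and TATAAA, the TATA box.
Apoa4: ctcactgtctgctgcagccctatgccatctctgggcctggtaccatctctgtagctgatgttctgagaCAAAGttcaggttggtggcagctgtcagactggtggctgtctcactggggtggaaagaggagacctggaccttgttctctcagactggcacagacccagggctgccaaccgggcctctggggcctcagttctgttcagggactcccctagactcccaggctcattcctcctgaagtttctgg
Apoa5: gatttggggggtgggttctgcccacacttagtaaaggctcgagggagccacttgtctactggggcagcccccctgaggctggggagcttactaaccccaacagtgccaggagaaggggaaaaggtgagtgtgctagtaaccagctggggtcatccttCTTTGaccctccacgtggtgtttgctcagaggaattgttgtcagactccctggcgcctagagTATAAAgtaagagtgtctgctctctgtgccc
Apoa1: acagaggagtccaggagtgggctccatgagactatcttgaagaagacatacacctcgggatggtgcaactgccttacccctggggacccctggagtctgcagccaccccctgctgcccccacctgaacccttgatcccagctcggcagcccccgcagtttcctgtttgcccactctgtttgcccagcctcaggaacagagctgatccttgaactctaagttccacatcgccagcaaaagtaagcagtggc
Promoter sequences were matched for 8 of the 10 genes (12 starts). On either strand of the 300 base windows, which run to 50 bases past the start, CAAAG was present in 8 of the 12 promoters (5 of the 8 genes) and in 53.9% of all 32851 promoters. TATAAA was present in 5 of the 12 (4 of the 8 genes) and in 13.6% of all promoters. The windows of the 2 Apoa5 starts overlap and share 1 CTTTG and 1 TATAAA, which count in both. The 12 are therefore not independent. Apoa4 held CAAAG at 182 bases before its start and no TATAAA, Apoa5 held CTTTG at 93 and TATAAA at 31 bases before, and Apoa1 held neither. AGGTCA, the core of nuclear receptor sites, was found in 2 of the 12 (16.3% of all promoters), TGACG, the core of cyclic AMP elements, in 1 (20.8%), and CCAAT in 2 (37.4%). These matches describe letters only.

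Most of these probe sets were among the brightest on the arrays. On all 9 arrays the highest value of the whole array was an Apoa1 probe set (1419232_a_at), at 43245 to 53321. Of the 15 probe sets, 11 lay in the brightest 1% of those tested (159 probe sets, mean intensity 15880.5 and above), and only Apoa4 and Apom lay outside it. Array signals flatten near the top of their range, so a change there can be understated. The median within-group SD was 0.11 on the log2 scale in the brightest 1% and 0.29 over all probe sets tested. The median absolute difference between T-Co and NT-Co was 0.15 and 0.28, respectively. In that comparison limma called 12 of the 159 brightest probe sets (7.55%, adjusted p under 0.05), and 6.54% of all probe sets tested. Whether any single probe set was saturated was not tested, since the files hold no scanner values.

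**Figure D1:**
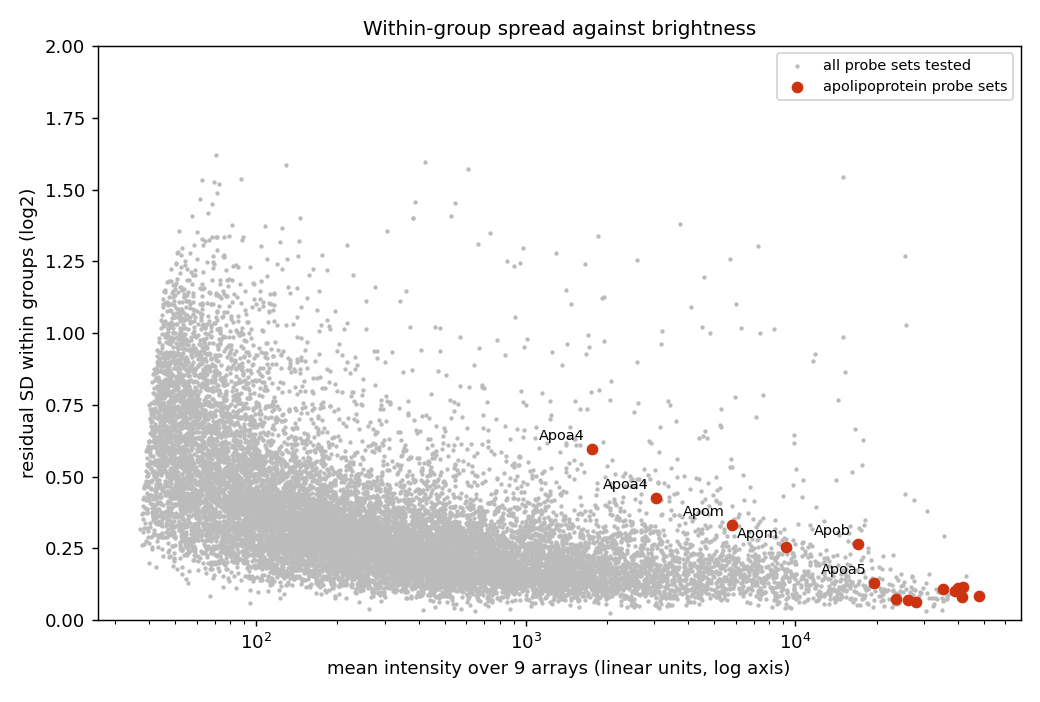
Residual SD within groups (log2 scale) against mean intensity over the 9 arrays (log axis) for all 15838 probe sets tested (grey) and the 15 apolipoprotein probe sets (red). Probe sets of Apoa1, Apoa2, Apoc1, Apoc3, Apoe and Apoh sit at the bright, low-spread end, and the 2 probe sets of Apoa4 lie lower in brightness and higher in spread.

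The first question was how livers of vehicle-treated mice differed with and without the cecal tumour. Apoa4 alone was called, on 1 of its 2 probe sets. In T-Co relative to NT-Co, 1 of 15 apolipoprotein probe sets passed as higher and 0 as lower (limma, adjusted p under 0.05 over all probe sets), where 6.54% of all probe sets tested passed, 4.16% as higher and 2.38% as lower. The median difference of the 15 was 0.14 on the log2 scale, against 0.01 over all probe sets tested and 0.09 in the brightest 1%. All 15 differences were above 0, as were 50.8% of all probe sets and 70.4% of the brightest 1%. After quantile normalization, which gives every array the same set of values, only 11 were above 0, 3 were below and 1 was at 0. That last one was the Apoa1 probe set with the top value on every array, which this method holds constant.

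Apoa4 on probe set 1417761_at read 1279, 962 and 866 in NT-Co replicates 8, 10 and 11. It read 2641, 1925 and 3947 in T-Co replicates 9, 10 and 13, and 832, 2446 and 952 in T-TSU replicates 2, 12 and 14. Every T-Co array lay above every NT-Co array, and among the treated arrays replicate 12 read as high as T-Co, replicate 14 lay among NT-Co and replicate 2 was the lowest of all 9. NT-Co averaged 1036 ± 216, T-Co 2838 ± 1025 and T-TSU 1410.0 ± 899 (SD, n = 3). Apoa4 thus rose from NT-Co to T-Co by 1.40 ± 0.36 (log2, ± SE), a 2.65-fold difference, with a 95% interval of 0.63 to 2.18 and limma adjusted p = 0.0371. The call was lost without NT-Co replicate 8 (adjusted p = 0.0683), 10 (0.0920) or 11 (0.135) and without T-Co replicate 9 (0.0720) or 13 (0.112), with the difference itself then between 1.14 and 1.57; without T-Co replicate 10 it held (1.65, 0.0304).

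The second Apoa4 probe set, 1436504_x_at, is the brighter one, and its suffix means that some of its probes can match other transcripts. It read 2658, 1843 and 2413 on the NT-Co arrays, 3899, 2926 and 5989.5 on the T-Co arrays and 1935, 3457 and 2139.9 on the T-TSU arrays, in the same replicate order. Again no T-Co array overlapped with NT-Co, T-Co replicate 13 was highest and T-TSU replicate 12 stood above its group. It differed by 0.84 ± 0.26, which missed the threshold (adjusted p = 0.0800) and passed without T-Co replicate 10 (1.08, 0.0356). Both probe sets of Apoa4 therefore had the same sign, with a smaller value on the brighter one.

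Markers of other cells and the beta-actin measure of RNA quality differed between the same groups. Of 13 measured macrophage and Kupffer cell markers, 1 was called higher in T-Co, Cd163. Their summed intensity was 9888 to 13832 over the NT-Co arrays, 13452 to 19433 over T-Co and 6160.5 to 12955 over T-TSU, and none was at 0 on any array. Their mean log2 value relative to NT-Co was 0.96 in T-Co replicate 13 and 0.33 in T-TSU replicate 12, the array highest in Apoa4 in each group, and -0.85 and -0.21 in the other treated arrays. It was 0.33 and 0.53 in T-Co replicates 9 and 10, of which replicate 9 read higher in Apoa4. In NT-Co replicates 8, 10 and 11 it was -0.20, 0.31 and -0.11, and replicate 10 had the lowest value of all arrays on Apoa4 1436504_x_at. Of 6 measured neutrophil markers, 0 were called by limma in T-Co against NT-Co, and their sum was 613 to 916 over NT-Co, 877 to 2234 over T-Co and 547 to 859 over T-TSU. Of 9 stellate cell markers, 1 fell in T-Co (Col3a1), with sums of 7031 to 7727, 5673 to 6417.5 and 6304 to 7505 in the same order. The hepatocyte list, with 5 of 11 genes called higher, stood 0.32 to 0.38 above NT-Co in T-Co. In T-TSU replicates 2, 12 and 14 it was at -0.06, 0.14 and 0.10. The 5 called were Arg1, Cps1, Ahsg, Tat and Asgr2. The genes not called lay between -0.22 (Hnf4a) and 0.49 (Asgr1) in T-Co. Over all probe sets tested, limma called 4.16% higher and 2.38% lower in T-Co. The beta-actin 3′ to 5′ ratio, a measure of RNA integrity, was 2.26 to 3.14 over NT-Co, 1.88 to 2.10 over T-Co and 1.79 to 2.16 over T-TSU. The same ratio for Gapdh overlapped between the groups, at 0.74 to 0.80, 0.73 to 0.81 and 0.71 to 0.85 in that order. The part of each of these in the Apoa4 difference was not tested. In whole liver, fewer cells of a type and less RNA per cell cannot be told apart.

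Because the intestine is the main source of Apoa4, enterocyte markers were read as well. The defining genes Vil1, Cdx1, Lct and Krt20 lay under the filter (mean intensity 4.75 to 25.5). Of the 3 tested, the fatty acid-binding protein Fabp2 fell by 1.12 ± 0.30 (adjusted p = 0.0446), and Cdx2 (0.24 ± 0.58) and Mep1a (0.02 ± 0.36) were not called. The summed level of the 3, nearly all of it Fabp2, was 897 to 2102 over T-Co arrays, 2694 to 3392 over NT-Co and 2976 to 3765 over T-TSU. The part of intestinal RNA in the Apoa4 difference was not tested.

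**Figure D2:**
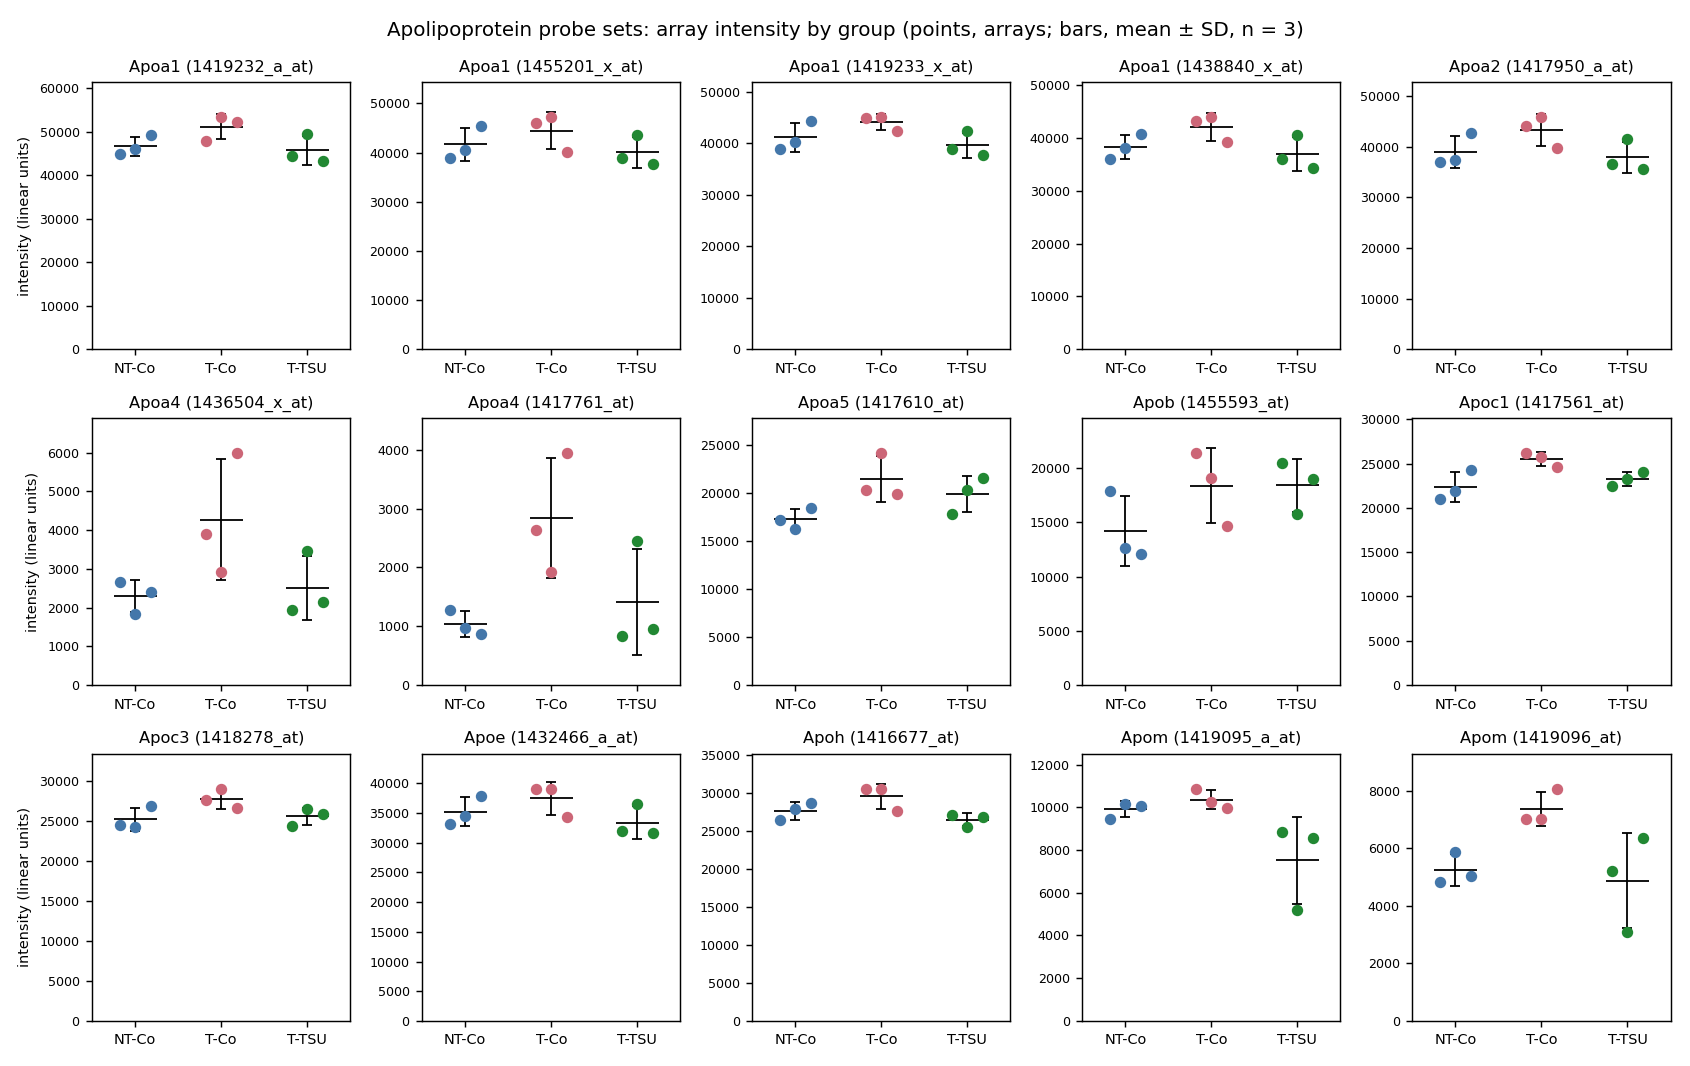
Intensity (linear units, axis from 0) of the 15 apolipoprotein probe sets in NT-Co, T-Co and T-TSU; points are arrays and bars are the mean ± SD (n = 3). Apoa4 in T-Co lies above NT-Co on both probe sets, and T-TSU replicate 12 stands high for Apoa4 and low for Apom. Probe sets of Apoa1, Apoa2, Apoc1, Apoc3, Apoe and Apoh vary by less than 1.3 times between arrays. Apoa5 varies by 1.48 times and Apob by 1.77 times.

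Apoa5, which promotes triglyceride clearance by lipoprotein lipase, read 17166, 16275 and 18378 on the NT-Co arrays, 20255, 24138 and 19878 on the T-Co arrays and 17829, 20272 and 21489.5 on the T-TSU arrays. The T-Co arrays all lay above NT-Co, and the treated arrays overlapped with both. The difference between T-Co and NT-Co was 0.31 ± 0.11, a 1.24-fold change that did not pass (adjusted p = 0.125).

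Apob, the structural protein of very low density lipoprotein, read 17916, 12656 and 12063 on the NT-Co arrays, 21391, 19108 and 14661 on the T-Co arrays and 20499.8, 15734 and 19001 on the T-TSU arrays. NT-Co replicate 8 was as high as the tumour-bearing arrays, so the groups overlapped. Against NT-Co, T-Co differed by 0.38 ± 0.17 (adjusted p = 0.227) and T-TSU by 0.39 ± 0.17 (0.285), and neither passed. Apob was the only member whose fitted difference between T-TSU and T-Co was above 0, at 0.01 ± 0.17, and that sign turned without T-Co replicate 13 (-0.14) or T-TSU replicate 2 (-0.07) or 14 (-0.02).

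Apoc1, which slows particle uptake, read 20995, 21870.4 and 24230.2 on the NT-Co arrays, 26198, 25718 and 24624 on the T-Co arrays and 22477, 23262 and 24074 on the T-TSU arrays. T-Co did not overlap with either of the other groups, although it stood only 1.14-fold above NT-Co (0.19 ± 0.09, adjusted p = 0.238). Apoc3, an inhibitor of lipoprotein lipase, ranged from 24321.5 to 26949.9 over NT-Co, from 26616 to 29067 over T-Co and from 24375 to 26503 over T-TSU. Its difference between T-Co and NT-Co was 0.14 ± 0.09 (adjusted p = 0.405), and T-TSU lay wholly below T-Co.

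The scaffold genes of high density lipoprotein gave small differences, none of them called. Apoa1 on its brightest probe set read 44757, 46014 and 49115 on the NT-Co arrays, 47947, 53321 and 52218 on the T-Co arrays and 44288, 49469.6 and 43245 on the T-TSU arrays, and the groups overlapped. The difference of 0.13 ± 0.09 between T-Co and NT-Co had a 95% interval of -0.06 to 0.33 (adjusted p = 0.434), and the other 3 Apoa1 probe sets, which read between 34372 and 47199.5, gave 0.09 to 0.14. Apoa2 differed by 0.15 ± 0.10 (0.431), with 37099 to 42741 over NT-Co, 39829 to 45892 over T-Co and 35667 to 41480.5 over T-TSU. Such intervals hold only for the signal as read, which near the top of the range may fall short of the RNA.

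Apoe, the ligand through which remnants bind the LDL receptor family, ranged from 33201 to 37917 over NT-Co, from 34304 to 39103 over T-Co and from 31671 to 36543 over T-TSU. Apoh, a phospholipid-binding plasma protein, ranged from 26448 to 28691, 27696 to 30585 and 25544 to 27111 in the same groups. Their differences between T-Co and NT-Co were 0.09 ± 0.10 (adjusted p = 0.660) and 0.10 ± 0.09 (0.578), and both turned to -0.01 and -0.04 after quantile normalization. The T-Co groups of both overlapped with NT-Co.

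Apom carries sphingosine 1-phosphate on high density lipoprotein, and its 2 probe sets gave unlike sizes. The dimmer one, 1419096_at, read 4842, 5878 and 5029 on the NT-Co arrays, 7015, 7027 and 8072 on the T-Co arrays and 5198, 3077 and 6367 on the T-TSU arrays. All T-Co arrays stood above both other groups. The difference of 0.49 ± 0.21 did not pass with all 9 arrays (adjusted p = 0.195), and passed without T-TSU replicate 12 (0.0446), which enters the shared estimate of the spread. The brighter one, 1419095_a_at, read 9473, 10178 and 10072 in NT-Co against 10866, 10247 and 9973 in T-Co, with overlap (0.06 ± 0.17, adjusted p = 0.872).

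Over the 15 probe sets, T-Co and NT-Co did not overlap for 5, all higher in T-Co: both of Apoa4, Apoa5, Apoc1 and Apom 1419096_at. Over all probe sets tested, 14.4% did not overlap in that direction, and in the brightest 1% 32.1%. Of the 11 apolipoprotein probe sets in the brightest 1%, only those of Apoa5 and Apoc1 did not overlap. At an unadjusted p under 0.05, 4 of 15 were higher and 0 lower, where 12% of all probe sets were higher. The 4 were both of Apoa4, Apoa5 and Apom 1419096_at.

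**Figure D3:**
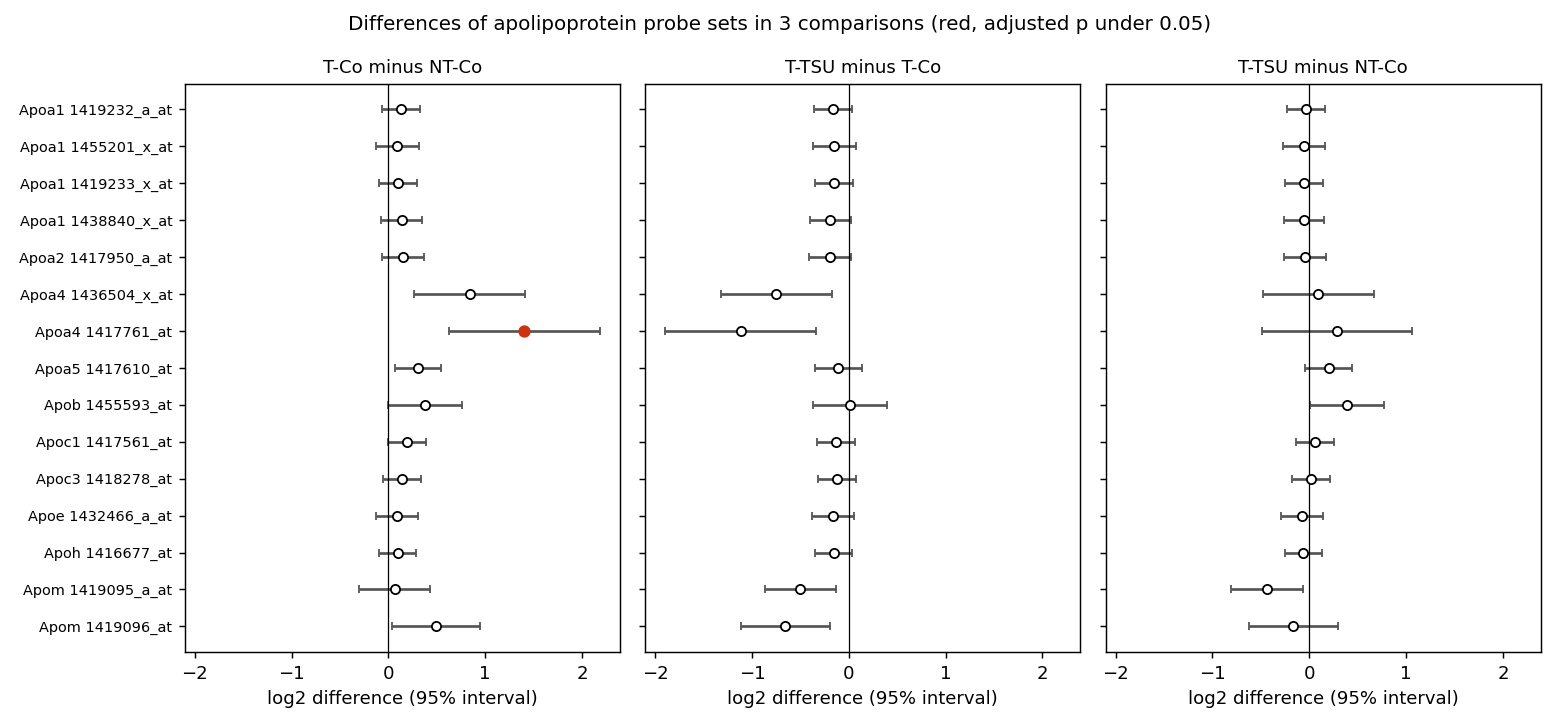
Log2 differences with 95% intervals from the limma fit for the 15 apolipoprotein probe sets in 3 comparisons; red marks an adjusted p under 0.05. Apoa4 1417761_at in T-Co minus NT-Co is the single red point, and the intervals of Apoa1, Apoa2, Apoe and Apoh are narrow and cross 0 in every panel.

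The second question was what TSU68 did in mice with the tumour, T-TSU being set against T-Co. By limma 0 of 15 apolipoprotein probe sets were called, where 0.0505% of all probe sets tested were. At an unadjusted p under 0.05, 4 were lower and 0 higher, where 5.39% of all probe sets were lower. These 4 were the probe sets of Apoa4 and Apom. In total 14 of 15 differences lay below 0, as did 51.3% over all probe sets, with a median of -0.16. In the brightest 1% of probe sets the median was -0.15 and 22.6% lay above 0, and over all probe sets the median was -0.01. After quantile normalization only 6 of 15 were below 0, 8 were above and 1 was at 0. This comparison shares the T-Co arrays with the one above, so a high T-Co value moves both.

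For Apoa4 the differences between T-TSU and T-Co were -1.12 ± 0.36 on 1417761_at (adjusted p = 0.315) and -0.75 ± 0.26 on 1436504_x_at (0.342), and neither passed. With T-TSU replicate 12 left out, the first fell by 1.60 ± 0.27 and passed (adjusted p = 0.0367), while the second was at -1.004 ± 0.26 (0.166). Leaving out T-TSU replicate 12 also raised the number of probe sets called in this comparison from 8 to 59. Other arrays moved the first the other way. It was at -0.85 without T-Co replicate 13 (limma adjusted p = 0.628), -0.83 without T-TSU replicate 2 (0.662) and -0.92 without T-TSU replicate 14 (0.572).

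Apom on 1419095_a_at read 8831, 5185 and 8575 in T-TSU replicates 2, 12 and 14, all below the lowest array of either other group. The difference from T-Co was -0.50 ± 0.17 (adjusted p = 0.332) and from NT-Co -0.44 ± 0.17 (0.208), and neither passed. Without T-TSU replicate 12 these were -0.25 ± 0.11 (0.421) and -0.19 ± 0.11 (0.494). On 1419096_at the difference from T-Co was -0.65 ± 0.21 (0.315), and -0.35 ± 0.14 (0.390) without that array. T-TSU replicate 12 was thus the third highest of all 9 arrays on both Apoa4 probe sets and the lowest on both of Apom.

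T-TSU and T-Co did not overlap for 5 probe sets, all lower in T-TSU: Apoc1, Apoc3, Apoh and both of Apom. Over all probe sets tested this was so for 7.39%, and in the brightest 1% for 39.6%. Of the 11 apolipoprotein probe sets in the brightest 1%, it was so only for those of Apoc1, Apoc3 and Apoh. The differences were -0.13 ± 0.09 for Apoc1 (adjusted p = 0.654), -0.12 ± 0.09 for Apoc3 (0.688) and -0.16 ± 0.09 for Apoh (0.571). After quantile normalization all 3 turned, to 0.04, 0.08 and 0.05. Apoa1, Apoa2 and Apoe differed by -0.16 ± 0.09, -0.19 ± 0.10 and -0.17 ± 0.10, and Apoa5 by -0.11 ± 0.11, none of them called.

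In T-TSU against NT-Co, 0 of 15 were called by limma, where 3.85% of all probe sets were, and 2 passed at an unadjusted p under 0.05. These were Apob, higher (9.2% of all probe sets were), and Apom 1419095_a_at, lower (7.67%), and the latter was the only probe set whose groups did not overlap (11.6% of all were lower without overlap). The median of the 15 was -0.04, with 6 of 15 above 0 (49.9% of all probe sets and 31.4% of the brightest 1%). Apoa4 was at 0.29 ± 0.36 and 0.09 ± 0.26, and without T-TSU replicate 12 at -0.20 and -0.16. Apom 1419096_at was at -0.16 ± 0.21, and Apoa1, Apoa2, Apoa5, Apoc1, Apoc3, Apoe and Apoh lay between -0.08 (Apoe) and 0.20 (Apoa5). Over the 3 groups together limma's F test called 0 of 15, where it called 5.7% of all probe sets (adjusted p = 0.0668 for Apoa4 1417761_at, the smallest).

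**Figure D4:**
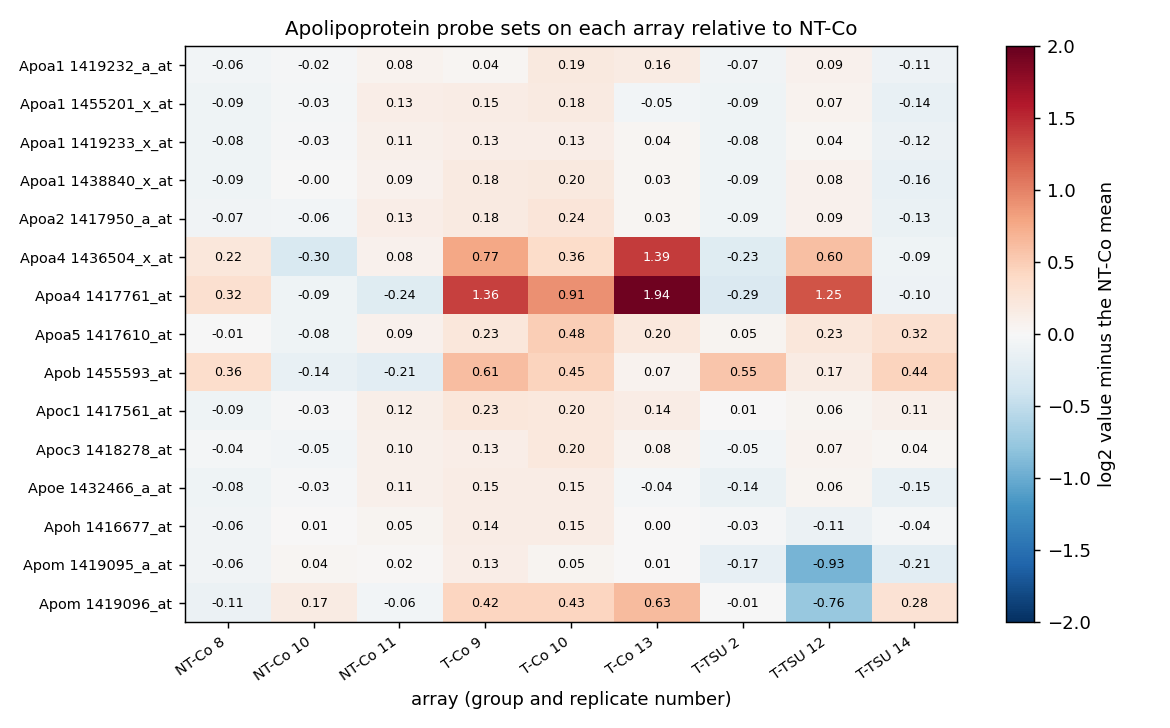
Log2 value of each apolipoprotein probe set on each array minus the mean of the NT-Co arrays, printed in each cell. Apoa4 1417761_at is at 0.91 to 1.94 in T-Co and at 1.25 in T-TSU replicate 12, and Apom is at -0.93 and -0.76 in that same array.

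Among the arrays, the brightest probe sets had their extremes in common. The 4 probe sets of Apoa1, Apoa2 and Apoe, 6 in all, had their highest value in T-Co replicate 10 and their lowest in T-TSU replicate 14. The mean log2 value of the brightest 1% of probe sets was also highest in T-Co replicate 10 (14.57), and it was 14.43 in T-TSU replicate 14 and lowest in T-TSU replicate 2 (14.39). Apoa4, Apob and Apom followed other orders. Apoa4 was highest in T-Co replicate 13, Apob in T-Co replicate 9, and Apom 1419096_at in T-Co replicate 13. The ratio of the highest to the lowest array was 4.74 for Apoa4 1417761_at, 2.62 for Apom 1419096_at and 1.77 for Apob, against 1.20 to 1.29 for Apoa1, Apoa2, Apoc1, Apoc3, Apoe and Apoh.

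The 5 other genes nearest to Apoa4 1417761_at in pattern were Nfkbiz, Orm3, Saa1 (probe set 1419075_s_at), Nupl1 and Lbp. Likeness was the root mean square difference of mean-centred log2 values over the 9 arrays, which was 0.27, 0.29, 0.30, 0.30 and 0.31. Nfkbiz encodes an inducible regulator of NF-kappaB, Orm3 and Saa1 acute phase plasma proteins, Nupl1 a nuclear pore protein, and Lbp the lipopolysaccharide-binding protein. They were chosen for this likeness, so their differences between T-Co and NT-Co are given as a description: 1.42, 1.31, 1.47, 0.97 and 1.10. The likeness used the treated arrays too, so their order there is also part of the choice and no separate result. All 5 were, like Apoa4, highest among the treated arrays in replicate 12, for example Nfkbiz at 641 against 281 and 319.

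Other genes of lipoprotein metabolism were read from lists of the pathway, 1 probe set per gene. Of 17 tested genes of particle assembly and secretion, 1 rose and 2 fell in T-Co against NT-Co. Plin2, which coats lipid droplets, fell by 1.33 ± 0.14 (adjusted p = 0.000472), and in T-TSU against NT-Co by 0.91 ± 0.14 (0.00331). Dgat2, the last enzyme of triglyceride synthesis, rose by 0.61 ± 0.16 (0.0472) and in T-TSU against NT-Co by 0.79 ± 0.16 (0.0197). Its dimmer probe set was also called in T-Co, at 0.92 (0.0215), and in T-TSU against NT-Co was at 0.78 and not called (0.0590). Ces1d, a carboxylesterase that mobilises stored triglyceride, fell by 0.57 ± 0.14 (0.0265) and was higher in T-TSU than in T-Co by 0.94 ± 0.14 (0.0453). Its next brightest probe set was also called in both comparisons, at -0.98 (0.00161) and 1.06 (0.0453). The dimmest Ces1d probe set had the same signs, at -0.46 (0.297) and 0.57 (0.437), and was not called. The brightest gene of the list, the chaperone Hspa5, was at -0.06 ± 0.20 in T-Co and was not called. For Dgat2 and Ces1d, the effect of leaving out an array was read on the brightest probe set only. The first Dgat2 call was lost on leaving out any array of the 9 except T-Co replicate 9 (adjusted p from 0.0518 to 0.173), and the first Ces1d call without NT-Co replicate 8 (0.0844) or 11 (0.127) or T-Co replicate 13 (0.0673). The later Dgat2 call was lost without NT-Co replicate 8 (0.0816) or T-TSU replicate 12 (0.0912) or 14 (0.0602), and the later Ces1d call without NT-Co replicate 8 (0.0652) or 11 (0.101), without T-Co replicate 9 (0.0609) or 13 (0.0706), or T-TSU replicate 2 (0.200) or 14 (0.192).

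Of 13 tested genes of high density lipoprotein formation and of 5 tested genes of Apob mRNA editing, 0 were called by limma in any comparison on the brightest probe set of each gene. On another probe set of Syncrip, an RNA-binding protein of the editing list, T-Co was higher by 1.06 ± 0.23 (adjusted p = 0.0171), while its brightest one gave 0.11 ± 0.25. Their brightest genes, Pon1, which encodes paraoxonase, and Dnajb11, were at 0.06 ± 0.12 and -0.14 ± 0.21 for T-Co. Of 12 tested receptor and clearance genes, 2 rose in T-Co. These were the fatty acid transporter Cd36 (1.44 ± 0.27, adjusted p = 0.00963, with 1 other probe set called at 1.80 and 1 not, at 0.11) and the heparan sulphate proteoglycan Sdc4 (0.94 ± 0.18, 0.00956, with the other probe set at 1.15 and not called). The brightest, Scarb2, was at -0.24 ± 0.13. Of 9 tested genes that control lipoprotein lipase, 1 fell in T-Co, the feeding-induced Angptl8 (-2.46 ± 0.55, 0.0198), and it fell in T-TSU against NT-Co too (-2.53 ± 0.55, 0.0227). The first call was lost without NT-Co replicate 10 (0.0650) or 11 (0.0718) or T-Co replicate 10 (0.0583). The second was lost without NT-Co replicate 10 (0.0798) or 11 (0.0820) or without T-TSU replicate 2 (0.0712), 12 (0.0552) or 14 (0.0873). Creb3l3, a fasting-activated factor that acts on Apoa4 among other genes, was at -0.26 ± 0.12 and was not called (0.227).

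Of 29 tested transcription factor genes known to act on apolipoprotein genes, 4 rose and 3 fell in T-Co against NT-Co, 0 were called in T-TSU against T-Co, and 4 rose in T-TSU against NT-Co. Ppargc1a, a coactivator of the fasting response, rose by 4.76 ± 0.34 (adjusted p = 5.90e-05) from a mean of 9.61 in NT-Co, near background, so that its size is uncertain. Its other 4 probe sets gave 1.29 to 2.08, of which 2 passed. Cebpb rose by 2.20 ± 0.29 (0.00126), whereas the lipogenic factor Srebf1 fell by 1.48 ± 0.26 (0.00621) and Foxa2 by 1.04 ± 0.19 (0.00730). In T-TSU against NT-Co, Ppargc1a rose by 3.27 ± 0.34 (0.000497), Cebpb by 1.71 ± 0.29 (0.00617), the fatty acid oxidation regulator Ppara by 1.59 ± 0.31 (0.0125) and Foxa3 by 0.90 ± 0.18 (0.0171). The Ppara call was lost without NT-Co replicate 11 (0.0518) or T-TSU replicate 12 (0.0553), and the Foxa3 call without NT-Co replicate 8 (0.0802) or 11 (0.0576) or T-TSU replicate 12 (0.0812) or 14 (0.0870). Hnf4a, the brightest, was at -0.22 ± 0.16 in T-Co on the probe set that stands for it and was not called. Its other 3 probe sets gave 0.04 to 0.96 there, and 1 of them passed (0.96 ± 0.24, 0.0329), so the direction differed between probe sets.

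Of 13 tested genes for other apolipoproteins and lipoprotein-borne proteins, 1 was called, Saa4, a constitutive member of the serum amyloid A family. It rose in T-Co by 0.67 ± 0.15 (adjusted p = 0.0207), and the call was lost without NT-Co replicate 8 (0.0860) or 10 (0.0756). The dimmer Saa4 probe set was also called in T-Co, at 0.99 (0.0135). The brightest, Clu, was at -0.05 ± 0.10. The closest relatives of the 10 genes, chosen after their values were seen, were Apoc2 (0.20 ± 0.14), Apoc4 (0.14 ± 0.10), Apof (0.20 ± 0.10) and Apon (0.28 ± 0.10), and none was called for T-Co (adjusted p from 0.118 to 0.491).

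Beside the counts for these lists stand the shares that limma called over all probe sets tested. They were 4.16% higher and 2.38% lower in T-Co against NT-Co, and 2.49% and 1.36% in T-TSU against NT-Co. In T-TSU against T-Co 0.0505% were called. The list counts rest on the brightest probe set of each gene. In T-Co, 6 genes not called on it passed as higher on another probe set, named here after their values were seen. Besides Hnf4a and Syncrip these were Lpgat1, an acyltransferase of the assembly list (3 probe sets, 0.78 to 1.21), Sdc1 of the receptor list (0.88 ± 0.22, adjusted p = 0.0356), the nuclear receptor Rora (1.28 ± 0.31, 0.0318) and Saa1. For Sdc1 and Rora the direction differed between probe sets. Their brightest ones were at -0.24 and -0.22, and the remaining ones at 0.18 and 0.02 for Sdc1 and -0.003 for Rora. In T-TSU against NT-Co the genes that passed only on another probe set were Lpgat1 (1.02 ± 0.17, 0.00617), Cd36 (1.39 ± 0.26, 0.0117), Rxra (0.76 ± 0.18, 0.0362), Rora (1.33 ± 0.31, 0.0356) and Saa4 (0.95 ± 0.20, 0.0217). Rora was at -0.07 and -0.02 on its other probe sets there.

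Several list calls also ended under other settings of the fit, read on the brightest probe set of each gene. Without the intensity trend the adjusted p for T-Co was 0.101 for Ces1d, 0.137 for Dgat2, 0.0537 for Sdc4, 0.0777 for Angptl8 and 0.0943 for Saa4. For T-TSU against NT-Co it was 0.0970 for Dgat2, 0.0952 for Angptl8, 0.0705 for Ppara and 0.0736 for Foxa3. With a robust trend Angptl8 was at 0.0850 and 0.107 in these comparisons. The first Dgat2 call was lost with no filter (0.0643), with arrays centred on their median (0.0736) and with only the 2 groups fitted (0.0767), where the first Ces1d call was at 0.0501. The Ces1d call in T-TSU against T-Co was lost with no filter (0.0642), quantile normalization (0.0530), median centring (0.0633), no trend (0.305) and only the 2 groups (0.118).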

How the data were processed

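Liver RNA of 9 samples (3 groups of 3) was labelled as biotin cRNA for Affymetrix 3′ arrays, per the labels' protocols. The deposited values are linear array intensities, scaled by the authors to a common level: each array's mean without the outer 2% of values at each end was 500.3. The labels name no summarisation software, and the table holds no detection calls, so none were used. Samples were grouped by title.

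Of 22690 probe sets, 64 controls were left out. The platform annotation gave 1 gene for 20380 of the other 22626, several for 691 and none for 1555, and only probe sets with 1 gene were named. Tests used log2(intensity + 7.92). The added value is the 10th percentile of all intensities, and it makes fold changes of dim genes too small. The dimmest 30% of probe sets by mean log2 value (below about 36.2 in intensity) were removed, leaving 15838. A group-means model over all arrays was fitted with limma 3.58.1 (R 4.3.3) with an intensity trend and 6 residual degrees of freedom, with two-sided tests. P-values were adjusted by Benjamini-Hochberg across the 15838, and the threshold was 0.05. The code was tested on simulated data. The number of arrays limits the precision.

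All member probe sets are reported. The brightest probe set stands for each listed gene. Named genes are up to 4 called genes per list and comparison with the smallest p, the brightest of each list, and the 5 genes most like the member with the smallest F p-value. The members and lists were chosen with earlier results of these data known. Alternatives were the pseudocount, filter, normalization, variance trend, leaving out each array, and fitting only the 2 groups compared.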

Additional observations from a re-analysis of the deposited data

How the results depend on the processing

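The Apoa4 call (1 of 15 probe sets in T-Co against NT-Co) kept its count with a pseudocount of 1 or 32, no filter, a filter at the 50th percentile, quantile or median scaling, and only these 2 groups. It was 0 without the intensity trend and 0 with a robust trend, and 0 to 2 with 1 array left out. For T-TSU against T-Co the count was 0, and 0 to 1 with 1 array left out; for any difference between the groups it was 0, and 0 to 1. For T-TSU against NT-Co it was 0 under every alternative tried. All probe sets called in T-Co against NT-Co numbered 1036, and 473 without the trend. Leaving out NT-Co replicate 8 gave 467 and replicate 11 gave 440.

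Of 810 values that the alternatives gave for the 45 member differences, 32 had the other sign, in 22 of the differences. With quantile normalization, T-Co minus NT-Co became -0.0090 for Apoa1 1455201_x_at, -0.0056 for Apoe and -0.035 for Apoh. T-TSU minus T-Co became 0.019, 0.018 and 0.0073 for Apoa1 1455201_x_at, 1419233_x_at and 1438840_x_at, 0.038 for Apoc1, 0.077 for Apoc3, 0.0068 for Apoe and 0.050 for Apoh. T-TSU minus NT-Co became 0.0096, 0.024 and 0.0080 for the same Apoa1 probe sets, 0.020 for Apoa2, 0.0012 for Apoe and 0.015 for Apoh. Pon1 became -0.058. With arrays centred on their median, Apoc3 in T-TSU minus NT-Co became -0.0090. With 1 array left out, Apob in T-TSU minus T-Co ranged from -0.144 to 0.129. T-TSU minus NT-Co ranged from -0.090 to 0.0066, -0.12 to 0.0076 and -0.102 to 0.00076 for Apoa1 1419232_a_at, 1455201_x_at and 1419233_x_at and from -0.11 to 0.024 for Apoa2. It ranged from -0.162 to 0.255 and from -0.197 to 0.576 for Apoa4 1436504_x_at and 1417761_at, from -0.0059 to 0.068 for Apoc3, and from -0.387 to 0.137 for Apom 1419096_at. T-Co minus NT-Co ranged from -0.26 to 0.168 for Hspa5, -0.309 to 0.071 for Dnajb11, -0.0083 to 0.187 for Pon1 and -0.10 to 0.015 for Clu. The cause was not tested.

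No paired analysis was possible because the groups compared share at most 1 replicate number. Whether the signals of Apoa1, Apoa2 and Apoe, among the brightest on the arrays, were saturated was not tested.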
